A study of Mus musculus with 12 samples.

Results

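The genes described here are the replication-dependent core and linker histone genes of the mouse, together with a few linker histone genes that lie outside the histone clusters. They were taken by name from 2 tables of mouse oocyte RNA-seq: every entry whose gene name carries a core histone or H1 prefix of the old or the current nomenclature, without names that end in -ps. The rule found 70 genes among 55385 entries of the PRC2 table and the same number among 55401 entries of the PRC1 table. The rule itself used no expression value, but the histone genes were chosen as a subject with earlier results of these data known. There were 10 H1, 19 H2A, 17 H2B, 12 H3 and 12 H4 genes. On chromosome 13, 24 genes lay in the proximal block of the large histone cluster and 31 in its distal block, with Hist1h2al on its own farther along. Another 10 lay on chromosome 3, and 4 H1 genes (H1f0, H1f7, H1f8 and H1f10) stood alone on chromosomes 15 and 6.

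The study measured RNA from oocytes isolated from mouse ovaries, in 12 libraries that form 6 groups of 2. In the PRC2 table, controls were labelled Eed F/+; Ddx4-Cre and conditional knockouts (cKO) Eed F/-; Ddx4-Cre, each as P6 non-growing oocytes and as P7 growing oocytes. In the PRC1 table, both groups were P7 growing oocytes: the control was labelled Ring1-/-; Rnf2 F/+; Ddx4-Cre, and the cKO Ring1-/-; Ring1 F/-; Ddx4-Cre. The germline Ring1 deletion was therefore shared by both PRC1 groups, and every group carried Ddx4-Cre, a Cre driver active in germ cells. The PRC1 cKO label repeats Ring1 at the floxed position and does not name Rnf2, so these samples are called the PRC1 libraries labelled cKO. Stage and age changed together (non-growing oocytes at P6, growing oocytes at P7) and cannot be told apart. Whether libraries of the same group represent different animals is not in the labels, so the p-values below measure the spread between libraries, which may be technical.

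Replication-dependent histone genes supply the core histones H2A, H2B, H3 and H4 and the somatic linker histones H1 while DNA is copied. Their mRNAs typically have no introns and end in a short stem-loop bound by SLBP in place of a poly(A) tail, although some of these genes can also give polyadenylated transcripts. Oocytes are arrested in meiotic prophase and do not copy DNA, and they carry their own linker histone, H1f8 (also called H1foo), together with replication-independent variants such as H3.3. PRC2, of which EED is a core subunit, methylates histone H3 on lysine, and PRC1, whose catalytic subunits are RING1 and RNF2, ubiquitylates H2A; both complexes are known for keeping genes silent. The library kit named in the labels primes cDNA from poly(A) tails, so the values below weigh polyadenylated transcripts; how much the tailless mRNA contributed was not tested.

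All values are TPM as deposited, an abundance scale of transcripts that corrects for transcript length and sums to the same total in every library. TPM keeps no read depth, so the depth behind a value is unknown. Eed stood at 88.9 and 90.5 TPM in control non-growing oocytes against 12.1 and 10.3 in cKO, and at 62.3 and 60.5 against 9.64 and 10.1 in growing oocytes. Ring1 was at 0.02 TPM or below in all 4 PRC1 libraries. PRC1 controls had 59.2 and 53.8 TPM of Rnf2 and the PRC1 libraries labelled cKO 87.8 and 61.4 TPM, so the whole-gene value of Rnf2 is no check of that label. The summed level of 12 oocyte markers was between 5613 and 18975 TPM in every library. Gene models of the provisional annotation class TEC took 2.26 to 2.58% of all TPM in non-growing oocytes, 20.9 to 25.9% in growing oocytes of both tables other than the PRC1 libraries labelled cKO, and 11.05 and 14.9% in those. Because TPM has a fixed sum, such shifts move every other gene's value.

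The stem-loop was searched in the annotated 3′ UTRs (GENCODE vM21, the same coordinates as the tables for all 70 genes), since it marks the mRNAs that can end without a poly(A) tail. The motif, read on the sense strand, spans 16 bases: GG, 2 free bases, CTT, a free base, T, a free base, AG, 2 free bases and CC. It was found in 43 of 68 histone genes with an annotated coding sequence (63.2%) and in 43 of 21833 other protein-coding genes (0.2%). Some of the 68, among them H2ac15, H2ac13, Hist1h2an and H2bc13, have an annotated 3′ UTR of 0 bases. No match was possible in those genes, so its absence there follows from the annotation. The 3 versions shown here are DNA with the loop in capitals and the stem on either side in lower case. The first was found in 24 genes, among them Hist1h2ap, Hist1h2ao, H2ac18, H2ac19, H1f2 and H2bc9, and is given at its H2ac18 position, chr3:96246032-96246047 (plus strand, GRCm38). The second was found in 6 genes and is given for H4c8, chr13:23531458-23531473 (plus strand). The third was found in 2 genes, of which H4c9 is shown, chr13:22040966-22040981 (minus strand).
H2ac18: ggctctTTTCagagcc
H4c8: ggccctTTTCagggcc
H4c9: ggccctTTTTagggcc

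The distance from this motif to the annotated transcript end differed widely among the genes that carry it. It was 3 bases in Hist1h2ap, 31 in Hist1h2ao and 35 in H2ac18, whose annotated mRNAs stop soon after the stem-loop. It was 840 bases in H1f2, 1214 in H2bc9 and 330 in H4c9, whose annotated 3′ UTRs continue well past it. H2bc4 and H1f8 held no match to these letters, and both had the polyadenylation signal AATAAA in the 3′ UTR. AATAAA was found in the 3′ UTR of 19 of the 68 histone genes (27.9%) and of 78.8% of the other protein-coding genes. The 68 again include the genes whose annotated 3′ UTR has 0 bases.

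Promoters were taken from RefSeq (GRCm38.p6, 250 bases before to 50 after the start); 62 of 70 genes matched. On either strand, CCAAT was found in all 16 H2A, all 15 H2B and all 10 H3 promoters, in 7 of 10 H1 and in 3 of 11 H4 promoters, against 37.4% of all 32851 promoters of that length. TATAAA was found in 68.8% of H2A and 46.7% of H2B promoters, against 13.6% of all promoters. The octamer ATTTGCAT, on either strand, was found in 46.7% of H2B, 37.5% of H2A and no H1, H3 or H4 promoters, against 1.74% of all promoters. The 13 head-to-head H2A and H2B pairs described below have starts 176 to 306 bases apart. Where both genes of a pair have a promoter here, the windows overlap, and 1 match can count for both types. The H2A and H2B shares are therefore not independent. Histone shares count genes, while the share of all promoters counts promoter entries. These matches describe the letters and are not evidence of binding. Shown are the promoters of H2ac15 and Hist1h2ao, which had some of the largest changes in both tables, of an abundant H2A gene on chromosome 3 (H2ac18) and of the most abundant member in growing oocytes (H1f8), with CCAAT and TATAAA on either strand in capitals. None of the 4 holds the octamer. They lie at chr13:21753863-21754162 (minus strand), chr13:21810117-21810416 (plus), chr3:96245247-96245546 (plus) and chr6:115944681-115944980 (plus).
H2ac15: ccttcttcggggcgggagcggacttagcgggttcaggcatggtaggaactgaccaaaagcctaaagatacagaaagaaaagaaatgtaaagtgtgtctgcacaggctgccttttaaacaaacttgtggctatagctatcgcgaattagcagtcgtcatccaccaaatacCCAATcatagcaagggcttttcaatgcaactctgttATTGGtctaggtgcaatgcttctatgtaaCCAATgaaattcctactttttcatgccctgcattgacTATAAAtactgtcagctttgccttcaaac
Hist1h2ao: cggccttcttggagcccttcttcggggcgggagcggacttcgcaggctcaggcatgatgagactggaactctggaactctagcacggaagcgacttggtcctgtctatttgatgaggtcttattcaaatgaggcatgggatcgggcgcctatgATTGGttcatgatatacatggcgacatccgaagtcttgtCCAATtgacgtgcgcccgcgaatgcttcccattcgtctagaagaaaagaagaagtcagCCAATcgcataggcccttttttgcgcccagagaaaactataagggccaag
H2ac18: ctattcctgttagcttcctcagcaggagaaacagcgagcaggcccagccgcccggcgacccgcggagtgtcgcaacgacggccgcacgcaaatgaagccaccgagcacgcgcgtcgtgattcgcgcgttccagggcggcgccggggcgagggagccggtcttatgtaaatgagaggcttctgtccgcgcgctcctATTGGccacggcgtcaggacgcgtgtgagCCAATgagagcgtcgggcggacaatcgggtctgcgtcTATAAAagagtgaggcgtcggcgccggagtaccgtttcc
H1f8: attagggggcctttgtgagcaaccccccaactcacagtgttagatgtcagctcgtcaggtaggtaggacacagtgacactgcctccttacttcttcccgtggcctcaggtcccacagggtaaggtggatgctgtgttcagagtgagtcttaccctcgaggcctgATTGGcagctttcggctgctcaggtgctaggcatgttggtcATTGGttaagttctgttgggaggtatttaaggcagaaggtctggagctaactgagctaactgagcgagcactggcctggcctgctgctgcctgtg

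Most histone genes were low in these oocytes. Of the 70 genes, 25 stayed under 1 TPM in every library, 45 reached 1 TPM in at least 1 library, and 18 reached 10 TPM. H1f6 and H2ac21 were listed at 0 throughout. In the control non-growing oocytes 11 genes were at 10 TPM or more in both libraries, and 6 genes were in the control growing oocytes of the PRC2 table. No H3 gene passed 5 TPM in any library, and H4c9 was the only H4 gene to pass 10. H3c13 led the H3 genes in control non-growing oocytes at 2.6 and 4.11 TPM and was listed at 0 in all 4 PRC1 libraries, while H3c14 was at 0.47 and 0.67 TPM in Eed control growing oocytes and at 1.6 and 1.3 TPM in PRC1 controls. In the Eed controls H4c8 was second among the H4 genes by mean TPM, at 2.26 and 1.59 TPM in control non-growing and 2.84 and 3.34 TPM in control growing oocytes. The heat map of these 18 genes shows 3 H1, 8 H2A, 6 H2B and 1 H4 gene.

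**Figure D1:**
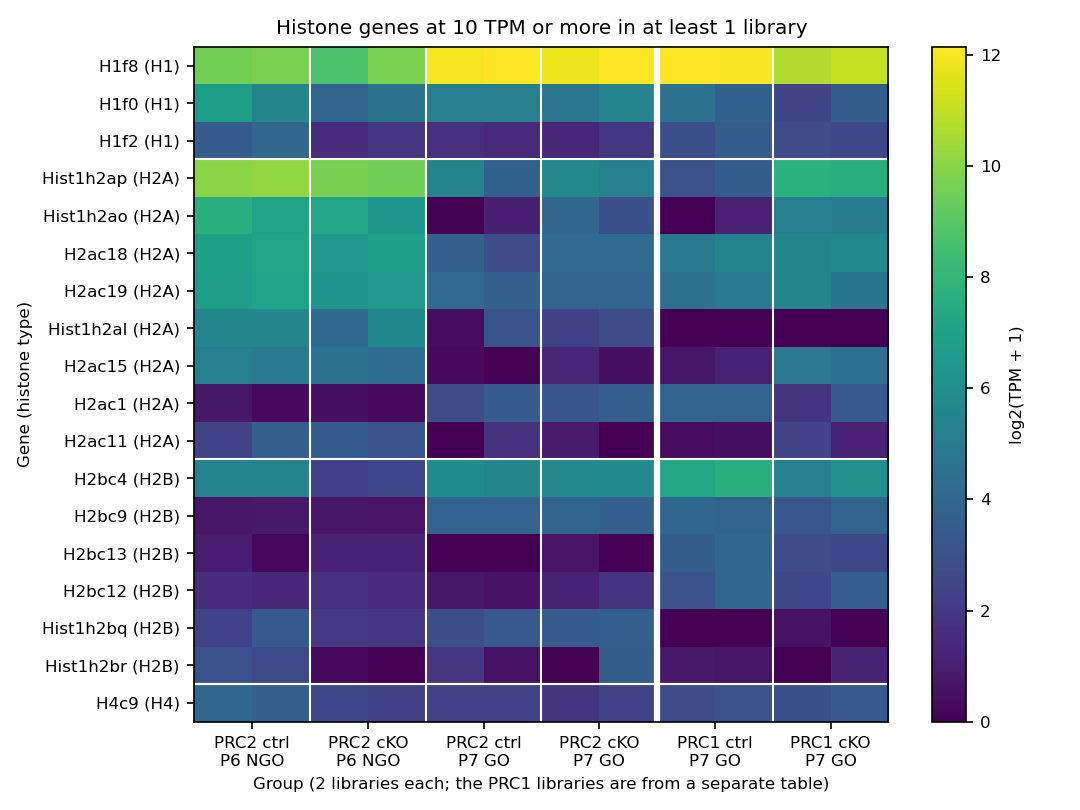
Levels of the 18 histone genes at 10 TPM or more in at least 1 library, as log2(TPM + 1) on the colour scale, with genes in rows by histone type and the 12 libraries in columns by group. Hist1h2ap, Hist1h2ao, H2ac18, H2ac19 and H2ac15 are brighter in the 4 non-growing libraries than in the PRC2 growing libraries, H1f8 is brighter in growing oocytes, and H2bc4 is darker in the 2 cKO non-growing libraries.

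The summed level by histone type shows how the mixture changed with stage. H2A summed to 1579 and 1650 TPM in control non-growing oocytes and to 80.9 and 53.0 TPM in control growing oocytes, a mean 24.1-fold lower. Without Hist1h2ap, the most abundant H2A gene, the H2A mean was still 13.3-fold lower in growing oocytes. H1 went the other way in level, from 864 and 888 TPM to 4098 and 4556 TPM, and H1f8 alone made up 89.5% of the H1 mean in non-growing and 99.1% in growing controls. H2B summed to 63.0 and 64.6 TPM in control non-growing oocytes and to 89.2 and 72.5 TPM in control growing oocytes. H3 stayed between 2.06 and 11.8 TPM and H4 between 8.28 and 22.9 TPM over all 12 libraries. These sums are descriptions with no test. In such bulk samples, fewer cells of a type and less RNA per cell cannot be told apart.

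**Figure D2:**
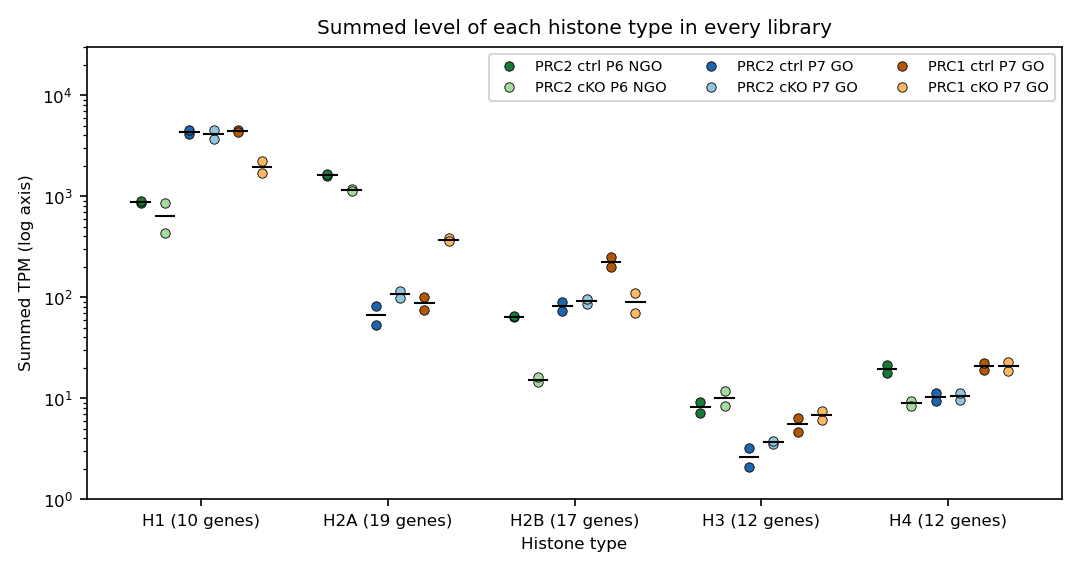
Summed TPM of each histone type (log axis) in every library, with points for the 2 libraries of a group and a bar at their mean. The H2A sum is 1116 to 1650 TPM in the 4 non-growing libraries, 53.0 to 115 TPM in the PRC2 growing libraries and 356 to 388 TPM in the PRC1 libraries labelled cKO; H2B is lowest, at 14.4 and 16.0 TPM, in the cKO non-growing libraries.

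Growth of control oocytes was compared first, growing against non-growing Eed F/+ libraries. limma was fitted to log2(TPM + 1) over all genes at 1 TPM or more in at least 2 libraries, with Benjamini-Hochberg adjustment over all of them and a call at an adjusted p under 0.05. Of the 70 histone genes in the PRC2 table, 37 entered this test, and the 33 that did not never passed 1.81 TPM. Of the 37, 17 fell and 3 rose with growth. Over all 14153 genes tested 70.6% were called, 54% lower and 16.6% higher, so a call is common in this comparison and the histone share, 20 of 37, is no larger than that of all genes. The median change of the tested histone genes was -0.92 and that of all genes -0.67 on the log2 scale. All 20 called histone genes kept their direction relative to that median and under the 3 other scalings tried. Those scalings placed the median of all genes between -0.27 and -0.06. With the trimmed mean the calls split into 7 higher and 15 lower of 34 tested, beside 4033 and 4180 of all 14067 genes. Quantile scaling gave 6 and 16 of 37, beside 3520 and 5116 of all 14153. Scaling to nuclear protein-coding genes gave 5 and 16 of 34, beside 3371 and 5384 of all 14134.

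The genes that fell most were H2A genes, which encode the core histone that pairs with H2B in the nucleosome. Hist1h2ap (chr13:21833026-21833507) was at 1041 and 1140 TPM in control non-growing oocytes and at 42.5 and 12.8 TPM in control growing oocytes. Hist1h2ao (chr13:21810465-21810944) was at 206 and 131 TPM in the former and at 0.04 and 1.10 TPM in the latter. H2ac15 (chr13:21753435-21753827) was at 37.3 and 31.7 TPM and then at 0.23 and 0 TPM. The groups of all 3 genes were far apart, with both non-growing libraries above both growing libraries. Of all genes tested, 66.2% had that order. Their fitted changes were -5.48 (SE 0.47, adjusted p = 7.5e-05), -6.80 (SE 0.50, adjusted p = 3.8e-05) and -5.00 (SE 0.28, adjusted p = 1.6e-05) in limma. These fitted changes understate the fold of genes near 0, since 1 TPM is added before the logarithm.

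The chromosome 3 H2A pair behaved alike. H2ac18 (chr3:96245497-96246082) was at 123 and 143 TPM in control non-growing and at 12.2 and 5.86 TPM in control growing oocytes. H2ac19 (chr3:96239749-96240276) was at 108 and 133 TPM and then at 18.3 and 11.9 TPM. The fitted changes were -3.81 (SE 0.30) and -2.94 (SE 0.21). These values are not independent, because 87.0% of the 150-base windows of H2ac18 and all of those of H2ac19 also occurred in other genes' transcripts, and the way reads were split between copies is not stated in the labels or notes used here. Hist1h2al, an annotated processed pseudogene, also fell, from 47.1 and 44.8 TPM to 0.32 and 7.99 TPM. H2ac11 was at 4.63 and 11.9 TPM in control non-growing and at 0 and 2.32 TPM in control growing oocytes, and H2ac8 was at 1.09 and 2.05 TPM and then listed at 0 in both. Both passed the test, with changes of -2.22 (SE 0.65) and -1.34 (SE 0.25). The H2ac11 call was lost with 0.1 TPM added in place of 1, without the filter, or with trimmed-mean scaling.

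H2ac15 and Hist1h2al shared none of their 150-base windows with another gene. The annotated H2ac15 transcript, 393 bases, holds no 3′ UTR. Antisense transcripts cannot be separated here because no label or note used here says whether strand was used, and the annotation places antisense or micro-RNA models over H2ac15, Hist1h2ap, Hist1h2ao, H2ac18 and H2ac19.

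Among the other types, H1f2 (chr13:23738808-23740367), a somatic linker histone, was at 10.7 and 15.2 TPM in control non-growing and at 2.26 and 1.84 TPM in control growing oocytes, a change of -2.18 (SE 0.28, adjusted p = 0.00044). H4c9 (chr13:22040636-22041362), an H4 gene, was at 14.9 and 12.3 TPM and then at 4.60 and 4.64 TPM, a change of -1.37 (SE 0.24, adjusted p = 0.0021). Both genes were higher in both non-growing control libraries, by more than the spread within either group. Both non-growing libraries were above both growing ones in 66.2% of all genes tested. Falls also passed the test for 7 genes that were below 5 TPM in each of these 4 libraries, with changes from -1.58 (H3c13) to -0.80 (H2bc12). Of these, Hist1h2bp, H1f4 and H1f10 entered the test only through the group where they were high. Among the H3 genes, H3c13 was at 2.6 and 4.11 TPM and then at 0 and 1.05 TPM, and H3c15 at 2.53 and 2.77 TPM and then at 0.78 and 0.27 TPM. The H4 gene H4c4 was at 1.7 and 1.45 TPM and then at 0.21 and 0.05 TPM, and the H2B genes Hist1h2bp and H2bc12 went from 2.16 and 1.62 TPM to 0 in both and from 1.91 and 1.67 TPM to 0.72 and 0.5 TPM. The linker histone genes H1f4 and H1f10 were at 0.92 and 1.31 TPM and at 1.65 and 1.28 TPM in non-growing controls, and at 0.03 and 0.2 TPM and at 0.48 and 0.19 TPM in growing controls. H1f4 (-0.25), H1f10 (-0.22) and H2bc12 (-0.12) lay close to the median of all genes once it was subtracted. The H2bc12 call was lost without the filter and under each of the other scalings.

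Rises with growth were called for H1f8, H2bc9 and H2ac1. H1f8 (chr6:115944938-115950236), the oocyte linker histone, was at 744 and 824 TPM in control non-growing and at 4056 and 4516 TPM in control growing oocytes, a change of 2.45 (SE 0.29, adjusted p = 0.00032). H2bc9 was at 0.66 and 0.75 TPM and then at 13.2 and 13.2 TPM, a change of 3.06 (SE 0.16). H2ac1, which encodes a histone H2A variant best known from testis, was at 0.74 and 0.24 TPM and then at 6.16 and 10.3 TPM, a change of 2.61 (SE 0.29). All 3 had every growing library above every non-growing library, as did 22.5% of all genes tested. H2bc4 was near its non-growing level, with 42.6 and 43.8 TPM in non-growing and 59.3 and 47.2 TPM in growing controls (0.29, SE 0.15, adjusted p = 0.13).

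The same comparison within the Eed cKO libraries gave 13 lower and 7 higher histone genes among the 37 tested, against 66.1% of all genes called, 46% lower and 20.1% higher. With the trimmed mean the split was 10 lower and 8 higher of 34 tested, beside 4508 and 4229 of all 14067 genes. Quantile scaling gave 13 and 8 of 37, beside 5371 and 3646 of all 14153. Scaling to nuclear protein-coding genes gave 10 and 9 of 34, beside 4508 and 4207 of all 14134. Hist1h2ap was at 812 and 735 TPM in cKO non-growing and at 51.9 and 38.6 TPM in cKO growing oocytes, a change of -4.08 (SE 0.47). Hist1h2ao was at 143 and 82.6 TPM and then at 15.4 and 6.84 TPM, a change of -3.27 (SE 0.50). H1f8 was at 411 and 821 TPM and then at 3688 and 4510 TPM, a change of 2.81 (SE 0.29). H2bc4 rose as well, from 4.15 and 5.13 TPM to 51.4 and 55.7 TPM, a change of 3.28 (SE 0.15, adjusted p = 7.7e-06). H2ac1 and H2bc9 rose in cKO too, from 0.39 and 0.24 TPM to 8.45 and 11.7 TPM and from 0.67 and 0.54 TPM to 14.2 and 12.4 TPM. The H4 genes H4c14 and H4c8 and the H2B gene Hist1h2bq were also called higher, H4c14 from 0.03 and 0 TPM to 1.99 and 2.83 TPM, H4c8 from 0.61 and 0.66 TPM to 4.29 and 3.52 TPM and Hist1h2bq from 3.08 and 2.76 TPM to 10.5 and 11.8 TPM. Falls were called for H2ac15 (23.9 and 20.2 TPM, then 1.47 and 0.43 TPM), H2ac18 (89.4 and 116.9 TPM, then 18.2 and 17.96 TPM) and H2ac19 (74.2 and 91.1 TPM, then 13.5 and 14.4 TPM). The other 8 genes that fell were each below 11 TPM in these 4 libraries, with changes from -2.86 to -0.72. The H2A genes among them were H2ac11 (10.4 and 7.46 TPM, then 0.83 and 0 TPM), Hist1h2an (5.30 and 4.26 TPM, then 0 in both) and H2ac8 (3.43 and 2.09 TPM, then 0.14 and 0.27 TPM). The H3 genes were H3c13 (3.89 and 4.76 TPM, then 0 in both) and H3c10 (1.06 and 2.20 TPM, then 0 and 0.54 TPM). The rest were H4c4 (1.47 and 1.01 TPM, then 0.10 and 0.19 TPM), H2bc13 (1.27 and 1.24 TPM, then 0.56 and 0 TPM) and H1f4 (1.3 and 0.67 TPM, then 0.27 and 0.11 TPM). Hist1h2an, H4c14, H3c10, H1f4 and H2bc13 entered the test only through the group where they were high. H1f2 was not called (-0.06, SE 0.28, adjusted p = 0.85). The comparisons within controls and within cKO share libraries with the genotype comparisons below, so their calls are not separate evidence.

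**Figure D3:**
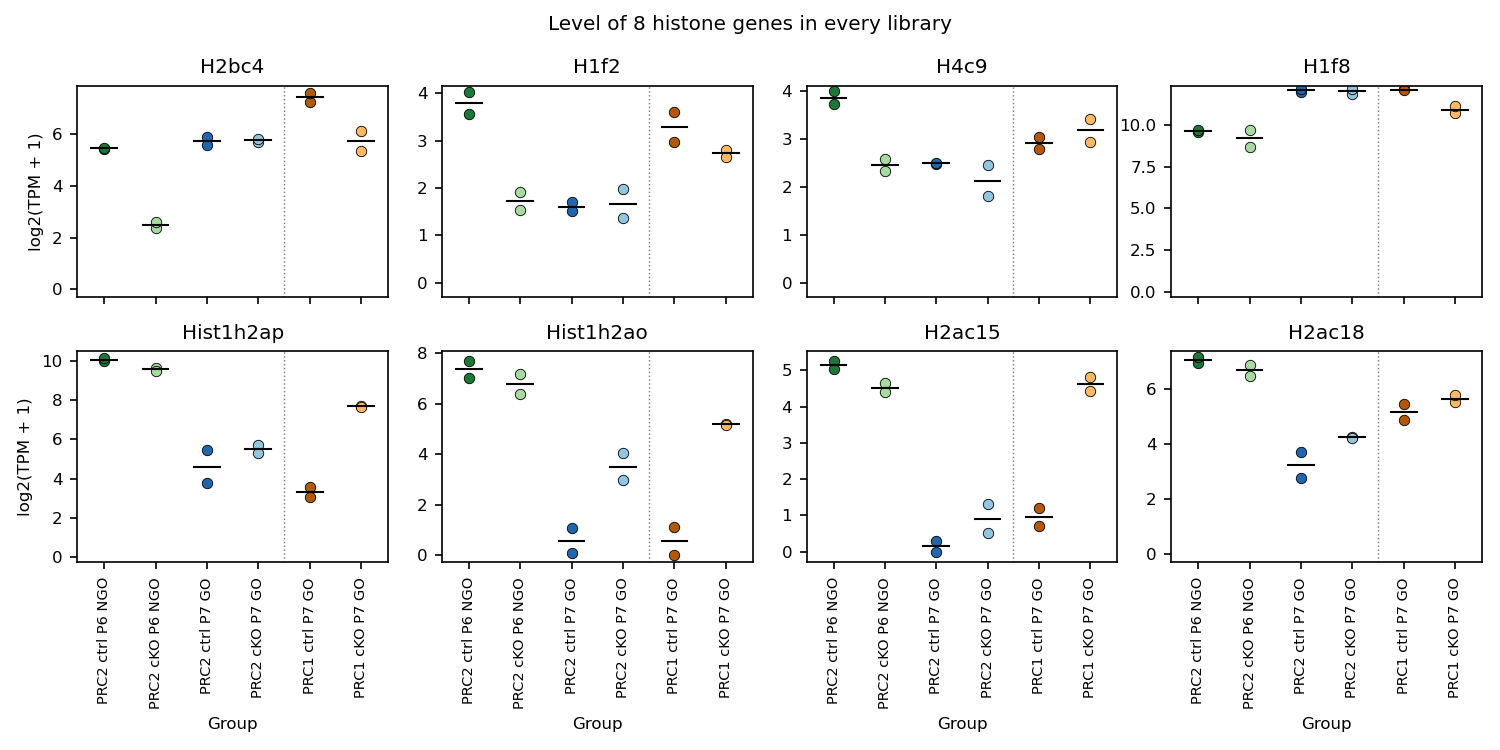
Levels of 8 histone genes in every library, as log2(TPM + 1), with a bar at the mean of each group; the dotted line separates the PRC2 table from the PRC1 table, between which levels are not tested. H2bc4, H1f2 and H4c9 are lower in both cKO non-growing libraries than in both controls, while Hist1h2ap, Hist1h2ao and H2ac15 are higher in both PRC1 libraries labelled cKO than in their controls.

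In non-growing oocytes H2bc4 (chr13:23684199-23692908) fell in the Eed cKO. It is an H2B gene in the distal chromosome 13 block whose transcript carries AATAAA and not the stem-loop letters. Its level was 42.6 and 43.8 TPM in controls and 4.15 and 5.13 TPM in cKO. The groups did not overlap, and the fitted change was -2.98 (SE 0.15, limma adjusted p = 0.0011), 7.86-fold lower on the log2(TPM + 1) scale. Both cKO libraries were below both controls in 38.1% of all genes tested. H2bc4 was the 1 histone gene called among 37 tested, against 0.311% of all 14153 genes (0.198% lower and 0.113% higher). At an unadjusted p under 0.05 there were 11 histone genes (29.7% of those tested, beside 16.4% of all genes), and the median change was -0.24 for the tested histone genes and -0.09 for all genes.

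Other histone genes with low p in non-growing oocytes did not pass the adjusted threshold. H1f2 was at 10.7 and 15.2 TPM in controls and at 1.91 and 2.79 TPM in cKO (-2.05, SE 0.28, adjusted p = 0.055). H4c9 was at 14.9 and 12.3 TPM in controls and at 5.01 and 4.01 TPM in cKO (-1.41, SE 0.24, adjusted p = 0.084). In both genes the 2 cKO libraries lay below the 2 controls, as in 38.1% of all genes tested, and the adjusted p did not reach 0.05. H1f2 was called with 5 TPM added in place of 1 and under quantile scaling, so its call depends on the setting. H1f0, a replacement linker histone, was at 107 and 45.0 TPM in controls and at 14.2 and 24.5 TPM in cKO (-1.84, SE 0.44, adjusted p = 0.15), with wide spread between the control libraries.

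Further down, Hist1h2bp (-1.10, adjusted p = 0.093) and H4c8 (-0.83, adjusted p = 0.14) were lower in both cKO libraries, and H3c10 was higher, at 1.06 and 2.20 TPM against 0.27 and 0 TPM (1.19, adjusted p = 0.16). H2A genes showed smaller differences than H2bc4. Hist1h2ap was at 1041 and 1140 TPM in controls and at 812 and 735 TPM in cKO (-0.49, SE 0.47, adjusted p = 0.62), and H2ac15 at 37.3 and 31.7 TPM against 23.9 and 20.2 TPM (-0.62, SE 0.28, adjusted p = 0.33). Neither passed the test. The summed H2B level was 63.0 and 64.6 TPM in controls and 14.4 and 16.0 TPM in cKO; without H2bc4 the H2B means were 20.6 and 10.6 TPM.

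In growing oocytes no histone gene differed between Eed cKO and control past the threshold, where limma called 0.17% of all genes (0.12% higher and 0.0495% lower). At an unadjusted p under 0.05 there were 4 histone genes, each higher in cKO (10.8% of those tested, beside 9.94% of all genes), and the median change of the tested histone genes was 0.23, with 0.08 for all genes. Hist1h2ao was at 0.04 and 1.10 TPM in controls and at 15.4 and 6.84 TPM in cKO (2.94, SE 0.50, adjusted p = 0.14). H2ac18 was at 12.2 and 5.86 TPM in controls and at 18.2 and 17.96 TPM in cKO (1.00, SE 0.30, adjusted p = 0.39), and H2bc12 was at 0.72 and 0.50 TPM against 1.32 and 2.68 TPM. Both cKO libraries lay above both controls in each of these genes, as in 23.5% of all genes tested. H2bc4 was at 59.3 and 47.2 TPM in controls and at 51.4 and 55.7 TPM in cKO, with overlapping groups.

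The difference between the 2 stages was itself tested, as the Eed cKO effect in growing oocytes minus the effect in non-growing oocytes. H2bc4 was the 1 histone gene called (2.99, SE 0.21, adjusted p = 0.010), against 0.0989% of all genes (0.0919% higher and 0.00707% lower). The call was lost in 2 of 8 fits with a library left out, without control non-growing library 2 or without cKO non-growing library 1. The same difference was 2.12 (SE 0.40, adjusted p = 0.26) for H1f2, 3.53 (SE 0.70, adjusted p = 0.26) for Hist1h2ao and 1.05 (SE 0.34, adjusted p = 0.31) for H4c9, none of which passed.

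**Figure D4:**
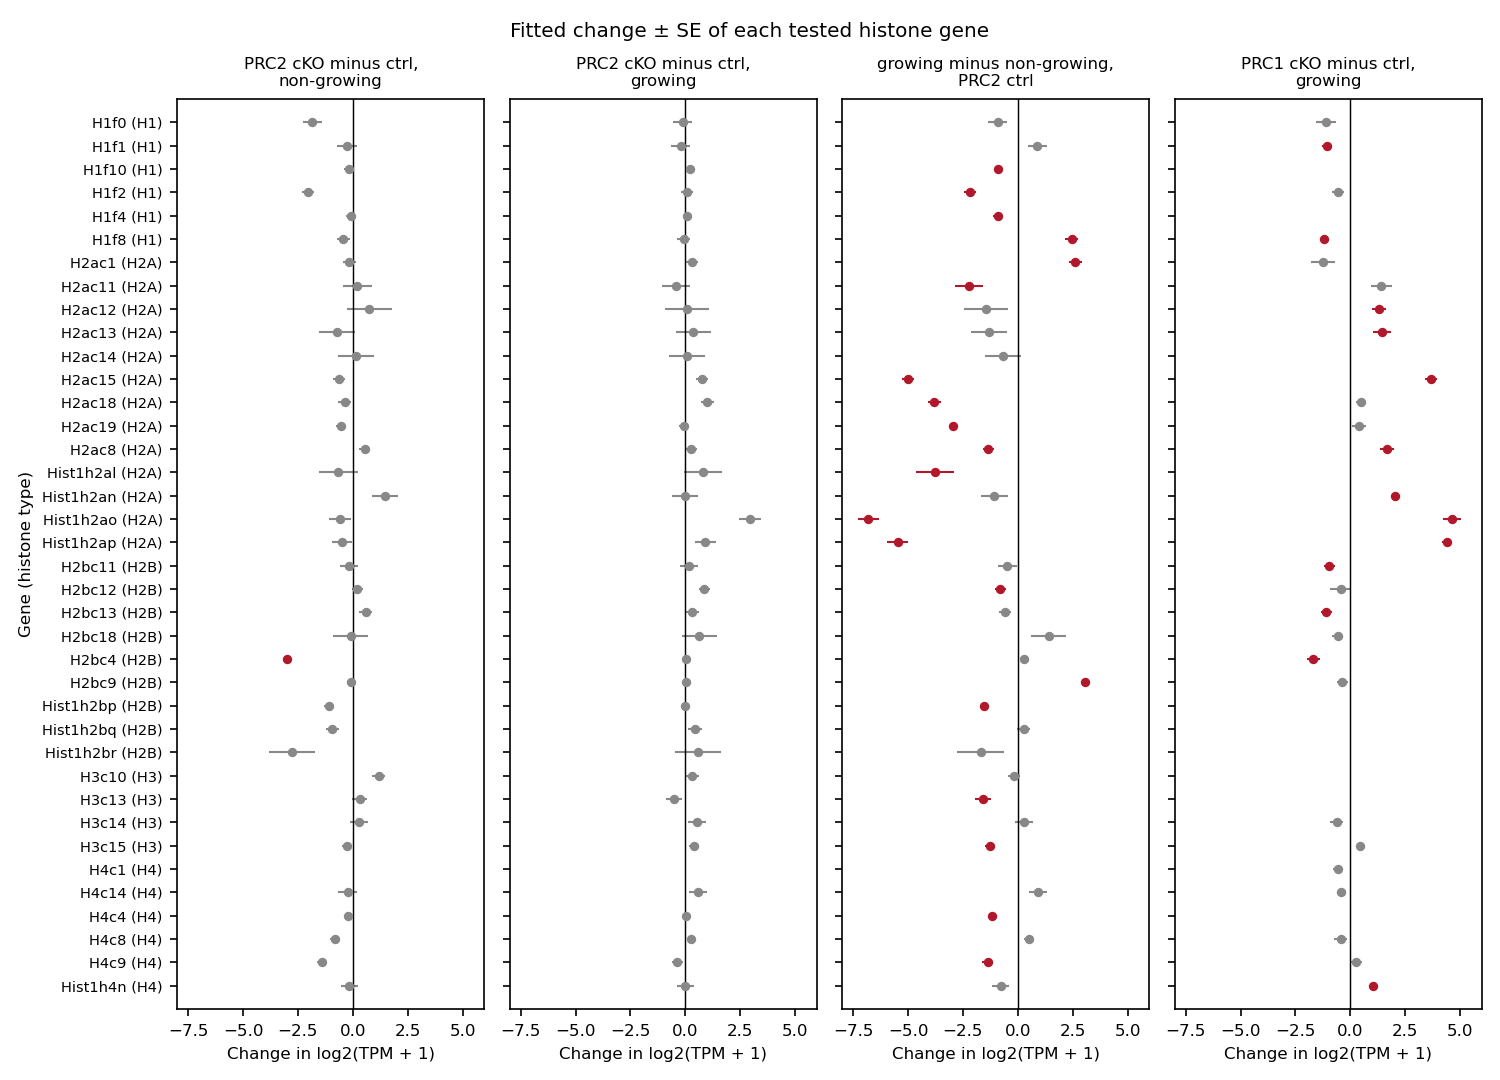
Fitted change in log2(TPM + 1) with its SE for each histone gene tested in the PRC2 or the PRC1 table, in 4 comparisons; genes called at an adjusted p under 0.05 are in red and others in grey, and a gene without a point was not tested there. H2bc4 is the 1 red point for Eed cKO in non-growing oocytes, none is red for Eed cKO in growing oocytes, and in the PRC1 comparison the 7 red H2A points lie to the right and the 3 red H2B points to the left.

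Growing oocytes of the PRC1 table showed more H2A and less H2B and H1 in the PRC1 libraries labelled cKO. H2A summed to 74.6 and 101 TPM in controls and to 388 and 356 TPM in the libraries labelled cKO, a mean ratio of 4.24. H2B summed to 198 and 251 TPM in controls and to 69.8 and 109 TPM, a mean 2.51-fold lower. Without H2bc4 it was 46.8 and 56.4 TPM in controls and 29.8 and 39.6 TPM, a mean 1.49-fold lower. Genes of the proximal chromosome 13 block summed to 40.1 and 55.5 TPM in controls and to 315 and 298 TPM. Those of the distal block summed to 204 and 255 TPM in controls and to 76.6 and 117 TPM, and without H2bc4 to 53.0 and 60.8 TPM and to 36.5 and 47.9 TPM.

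Of the 70 histone genes in the PRC1 table, 28 were tested, and the other 42 never passed 1.55 TPM. Of the 28, 8 rose and 5 fell in the PRC1 libraries labelled cKO, against 41.3% of all 14941 genes called higher and 6.45% lower (47.8% in all). The share of histone genes that rose was below that of all genes, and the share that fell above it; this comparison of shares was not tested. The median change was -0.39 for the tested histone genes and 0.55 for all genes, and all 13 calls kept their direction relative to that median. The split depended on scaling. With trimmed-mean scaling, which moved the median of all genes to -0.10, it became 5 higher and 14 lower of 27 tested. Over all 14635 genes tested, that scaling called 2928 higher and 3505 lower. Quantile scaling (-0.04) gave 4 and 10 of 28, beside 2722 and 2636 of all 14941 genes. Scaling to nuclear protein-coding genes (0.34) gave 7 and 6 of 30, beside 4938 and 1513 of all 14843.

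Of the 8 genes that rose, 7 encode H2A. All of the 8 except Hist1h2ap entered the test only through the PRC1 libraries labelled cKO, having reached 1 TPM in at most 1 control, so their number is no measure of the family. Hist1h2ap was at 7.16 and 10.95 TPM in controls and at 213 and 200.1 TPM in the PRC1 libraries labelled cKO (4.39, SE 0.22, limma adjusted p = 0.0021). Hist1h2ao was at 0 and 1.17 TPM and at 36.1 and 34.4 TPM (4.62, SE 0.41, adjusted p = 0.0025). H2ac15, with no shared 150-base window, was at 0.62 and 1.29 TPM and at 27.0 and 20.7 TPM (3.68, SE 0.28, adjusted p = 0.0023). Every PRC1 library labelled cKO was above every control for these genes, as in 62.3% of all genes tested. The change of each of these genes was at least 3.02 on the log2 scale under every scaling tried. Hist1h2an was listed at 0 in both controls and was at 2.98 and 3.11 TPM in the libraries labelled cKO.

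The remaining calls in that direction were of genes under 5 TPM. H2ac8 was at 0 and 0.14 TPM in controls and at 3.58 and 1.5 TPM in the PRC1 libraries labelled cKO, with a change of 1.66 (SE 0.32). H2ac13 was at 0.99 and 0 TPM and at 2.11 and 3.85 TPM, H2ac12 at 0.61 and 0 TPM and at 2.72 and 1.67 TPM, and the H4 gene Hist1h4n at 0 and 0.14 TPM and at 1.34 and 1.06 TPM. These 4 calls were each lost under at least 1 other setting. The chromosome 3 pair, abundant in non-growing oocytes, did not pass here: H2ac18 was at 28.9 and 43.2 TPM in controls and at 46.0 and 53.9 TPM (0.48, SE 0.24, adjusted p = 0.15), and H2ac19 at 21.7 and 29.5 TPM and at 44.4 and 25.6 TPM.

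The 5 genes that fell were H2bc4, H1f8, H2bc13, H1f1 and H2bc11. H2bc4 was at 151 and 194 TPM in controls and at 40.1 and 69.2 TPM in the PRC1 libraries labelled cKO (-1.68, SE 0.30, adjusted p = 0.0099). H1f8 was at 4531 and 4259 TPM and at 1678 and 2190 TPM (-1.20, SE 0.18, adjusted p = 0.0061). Controls were above the libraries labelled cKO in both genes, without overlap, as in 15.2% of all genes tested. H2bc13 was at 11 and 15.3 TPM in controls and at 5.90 and 5.19 TPM (-1.10, SE 0.25). H1f1, a somatic linker histone, was at 4.11 and 4.67 TPM and at 1.34 and 1.80 TPM (-1.07, SE 0.22). H2bc11 was at 4.17 and 2.67 TPM and at 1.38 and 1.12 TPM (-0.96, SE 0.25). The H2bc13 call was lost with the replicate number as a block, and the H2bc11 call with that block or without the filter. H1f2, at 6.89 and 11.1 TPM in controls and 6.0 and 5.30 TPM (adjusted p = 0.16), and H4c9, at 5.88 and 7.17 TPM and 6.70 and 9.65 TPM (adjusted p = 0.43), did not pass.

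Of the 13 calls, 7 held in all alternatives that used every library and 8 in all fits with a library left out in which the gene was tested; Hist1h2ap, Hist1h2ao, H2ac15, H2bc4 and H1f8 held in both. Among those 8, Hist1h2an, H2ac8 and Hist1h4n were each tested in only 2 of the 4 fits with a library left out. They entered the test only through the PRC1 libraries labelled cKO. Fits without 1 of those libraries did not test them, so their calls could not be lost there. Without the first PRC1 library labelled cKO, 8 histone genes were called, 3 higher and 5 lower.

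Markers of other ovarian cells differed between the same libraries. The summed level of 12 granulosa cell markers was 9.92 and 12.7 TPM in PRC1 controls and 40.2 and 27.2 TPM in the PRC1 libraries labelled cKO, where 4 of the 5 tested rose and none was at 0 in both; Foxl2 was at 0 in both controls. Over 8 stromal markers the sum was 0.86 and 0.82 TPM in controls and 6.22 and 9.39 TPM, with Tcf21 at 0 in both libraries labelled cKO. Over 6 endothelial markers it was 7.46 and 6.10 TPM and then 8.28 and 11.2 TPM, over 7 immune markers 2.61 and 2.37 TPM and then 4.24 and 2.93 TPM, and over 5 blood markers 0.25 and 0.85 TPM and then 2.40 and 2.38 TPM. The oocyte marker sum was 17708 and 18975 TPM in controls and 13971 and 13197 TPM in the libraries labelled cKO, and of the 12 markers 4 were called higher and 4 lower. Bmp15, an oocyte growth factor, was at 448 and 354 TPM in controls and at 22.1 and 74.2 TPM (-3.26, SE 0.56), Oosp1 at 318 and 297 TPM and at 40.7 and 66.6 TPM (-2.54, SE 0.25), and Gdf9, another oocyte growth factor, at 4864 and 5225 TPM and at 1572 and 2205 TPM (-1.44, SE 0.20). Sohlh1, a transcription factor of early oocytes, was at 89.97 and 157 TPM in controls and at 986 and 598 TPM (2.68, SE 0.36). The number of models at 1 TPM or more was 12313 and 12592 in controls and 15582 and 14940. The part of these differences in the histone values was not tested. In the PRC2 table the granulosa sum was 3.64 to 5.19 TPM in the non-growing and 9.46 to 12.7 TPM in the growing libraries. With growth of controls 1 of the 4 tested was called, Nr5a2, from 0.48 and 0.39 TPM to 4.95 and 5.06 TPM, beside 70.6% of all genes called. In non-growing oocytes the stromal sum was 3.66 and 3.18 TPM in controls and 6.21 and 4.86 TPM in Eed cKO, with Dcn not called (0.64, SE 0.18, adjusted p = 0.19). The oocyte marker sum was 7525 and 7888 TPM in those controls and 5613 and 6249 TPM in cKO, and 1 of the 12 was called, Oosp1 at 6.33 and 7.37 TPM against 2.29 and 1.83 TPM (-1.36, SE 0.15, limma adjusted p = 0.029). The part of these differences in the fall of H2bc4 was not tested.

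Many H2A and H2B genes lie head to head, and 13 such pairs had starts 176 to 306 bases apart. One partner was above the other in both libraries in 7 of the 13 pairs in control non-growing oocytes, and 3 of the pairs with a wide gap are given here. H2ac15 was at 37.3 and 31.7 TPM in control non-growing oocytes and its partner H2bc15 at 0 in both libraries. Hist1h2ap was at 1041 and 1140 TPM and its partner Hist1h2br at 7.45 and 5.73 TPM. In H2ac6 and H2bc4 the order was the reverse, with H2bc4 at 42.6 and 43.8 TPM and H2ac6 at 0.15 and 0.40 TPM.

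The counts over the pairs are a description with no test. The H2A gene was above its H2B partner in both libraries in 5 of 13 pairs in control and 8 in Eed cKO non-growing oocytes, and the H2B gene in 2 and 1. In growing oocytes of the same table the H2A gene was above in 2 pairs in controls and 4 in cKO, and the H2B gene in 3 and 2. In the PRC1 table the H2A gene was above in 3 pairs in controls and 7 in the libraries labelled cKO, and the H2B gene in 6 and 3. In the PRC1 libraries labelled cKO, Hist1h2ao was at 36.1 and 34.4 TPM with its partner Hist1h2bq at 0.53 and 0 TPM, and H2ac15 was at 27.0 and 20.7 TPM with H2bc15 at 0 in both. The partners of the H2A genes that rose there thus did not reach 2 TPM, apart from H2bc13 and H2bc12, which were at 5.90 and 5.19 TPM and at 4.95 and 11.6 TPM.

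**Figure D5:**
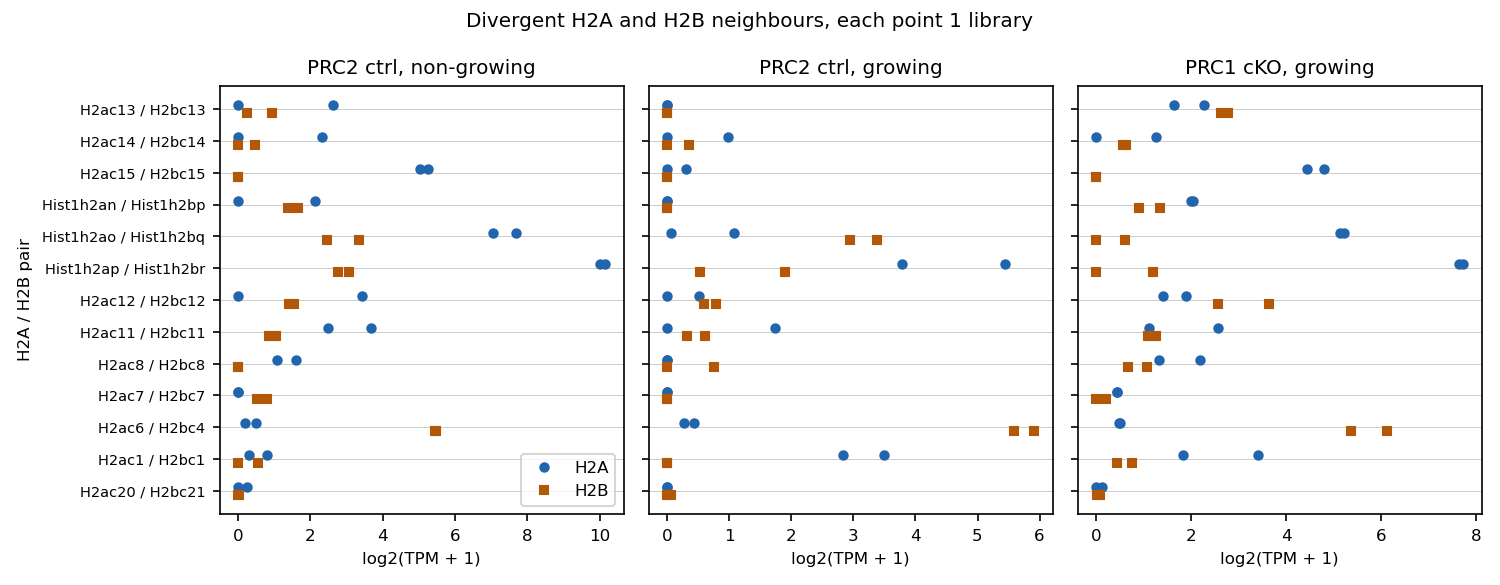
Levels of the 13 divergent H2A and H2B pairs as log2(TPM + 1) in 3 groups, with circles for the H2A and squares for the H2B gene and each point 1 library; the 3 horizontal scales differ. Hist1h2ap, Hist1h2ao and H2ac15 lie to the right of their partners in control non-growing oocytes and in the PRC1 libraries labelled cKO, and H2bc4 lies to the right of H2ac6 in all 3 groups.

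Genes that act on histone mRNA were read from a list of 24, all tested. In the Eed cKO comparisons limma called none of them at either stage. In non-growing oocytes 6 had an unadjusted p under 0.05 (Zfp473, Eri1, Coil, Lsm11, Upf1 and Lsm10), the lowest adjusted p in limma being 0.17. In growing oocytes 1 did (Wdr33). Of all genes, 16.4% and 9.94% were under that p in the 2 stages. With growth of control oocytes 3 rose and 16 fell, with a median of -0.91, beside 16.6% of all genes higher, 54% lower and a median of -0.67. Slbp, which encodes the stem-loop binding protein, was at 414 and 406 TPM in control non-growing and at 1630 and 1820 TPM in control growing oocytes (2.07, SE 0.08, adjusted p = 6.4e-06). Zfp473, a U7 snRNP-associated factor, was at 33.3 and 33.8 TPM and then at 114 and 123 TPM (1.79, SE 0.17). Npat, the coactivator of histone gene transcription, fell from 9.66 and 10.9 TPM to 4.02 and 3.69 TPM (-1.22, SE 0.16). Slbp and Zfp473 thus rose while the stem-loop histone genes that passed fell, apart from H2bc9.

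In the PRC1 libraries labelled cKO 3 of these 24 genes rose and 2 fell, beside 41.3% of all genes higher and 6.45% lower. Slbp was at 1530 and 1229 TPM in controls and at 533 and 896 TPM (-0.99, SE 0.28, adjusted p = 0.038). Npat was at 4.09 and 4.23 TPM and at 10.2 and 7.16 TPM (0.89, SE 0.25, adjusted p = 0.038). Lsm10 and Lsm11, U7 snRNP subunits, did not pass (adjusted p = 0.20 and 0.11).

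Replacement histone variants, which are made outside S phase, were a separate list of 14 genes, 12 tested in the PRC2 and 11 in the PRC1 table; it includes H1f0, H1f8 and H1f10. Neither Eed cKO comparison called any in limma. At an unadjusted p under 0.05 there were 3 in non-growing and 0 in growing oocytes, beside 16.4% and 9.94% of all genes. With growth of control oocytes 1 rose (H1f8) and 7 fell, among them H2az2 (-1.96, SE 0.09) and Macroh2a1 (-2.19, SE 0.11), beside 16.6% of all genes higher and 54% lower. H3f3b, a gene for H3.3, was the most abundant of the list in non-growing oocytes, at 3458 and 3301 TPM in controls, and was at 1370 and 1631 TPM in control growing oocytes. In the PRC1 libraries labelled cKO 4 rose and 2 fell (all genes: 41.3% and 6.45%); H2az1 was at 210.2 and 207 TPM in controls and at 484 and 543 TPM (1.29, SE 0.13, adjusted p = 0.0029).

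Histone chaperones (27 genes) and S phase genes (35 genes) were also counted, and limma called none of either list in the Eed cKO comparisons. At an unadjusted p under 0.05 there were 2 chaperone and 5 S phase genes in non-growing oocytes, and 1 and 3 in growing oocytes. Of all genes, 16.4% and 9.94% were under that p in the 2 stages. With growth of control oocytes 2 chaperone genes rose and 20 fell, and 5 S phase genes rose and 15 fell, beside the 16.6% of all genes higher and 54% lower. Npm2, an oocyte chaperone of H2A and H2B, was among those that rose (3.04, SE 0.11). In the PRC1 libraries labelled cKO 6 chaperone genes rose and 1 fell, and 6 S phase genes rose and 3 fell, beside 41.3% of all genes higher and 6.45% lower; the medians were 0.36 and 0.07, with 0.55 for all genes. Among them Ccne1, which encodes cyclin E1, rose by 1.99 (SE 0.17).

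The genes whose levels were most like those of H2bc4 over the 8 PRC2 libraries were Sco2 (Pearson r = 0.97), Izumo4 (0.97), Fam241b (0.96), Tmc4 (0.96) and Phf11c (0.95, on log2(TPM + 1)). These are descriptions over libraries that share groups, chosen as the highest among all genes tested.

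How far single histone genes can be told apart differed by type. Of the 70 genes, 52 shared at least 1 window of 150 bases with another gene, 22 shared 50% or more of their windows and 18 shared none. Of the H1 genes 9 of 10 shared none, H1f2 and H1f8 among them. Shorter or inexact matches were not searched. H2bc4 shared 17.4% of its windows, Hist1h2ap 91.0% and Hist1h2ao 91.5%. For genes with a high share, the values of single copies are uncertain. A sum by type also depends on how reads were split, because TPM corrects for transcript length and the copies differ in length. Among H2A genes with shared windows, the annotated transcript was 2482 bases in H2ac6 and 393 in H2ac13. The sum would also miss multi-mapped reads that were left out or given to other genes, and their handling is not stated.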

How the data were processed

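Oocyte RNA was isolated with a QIAGEN RNeasy Plus Micro kit, turned into cDNA libraries with the low-input kit of NEBNext and read as paired ends on an Illumina HiSeq, per the labels' protocols. Tools listed in the submitters' processing notes are RSEM 1.3.3, Subread 2.0.3, Trim Galore 0.6.10, SAMtools and HISAT2, and the build is GRCm38/mm10. Neither the tool that gave the values nor the handling of multi-mapped reads is stated there. The authors deposited TPM per gene in 2 tables, each with its own libraries, and comparisons were made within a table.

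The histone genes, the comparison lists and the tests were chosen with earlier results of these data known. Values were taken as log2(TPM + 1), and genes at 1 TPM or more in at least 2 libraries were fitted with limma 3.58.1 in R 4.3.3 (all groups of a table in one model, variance trend), with Benjamini-Hochberg adjustment over all tested genes and a threshold of 0.05. With 2 libraries a group, an exact test over libraries cannot reach that threshold. The code was tested on simulated data. Depth per library is not kept in TPM, so no interval from counts can be given.

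Genes chosen to be named were H2bc4, H1f2, H4c9, Hist1h2ao and Hist1h2ap, the called genes, the 3 most abundant of each type and those with the smallest p in each direction. Not every named gene has its values printed for every library, and others are given by range. From the comparison lists, Slbp, Npat, Lsm10, Lsm11, Zfp473 and those with the smallest p were named. H1f6, H2ac21 and the partners of divergent pairs were named after their values were seen. Stem-loops were searched in GENCODE vM21 transcripts and promoter motifs in RefSeq promoters. Alternatives were another pseudocount, no filter, 3 other scalings, a fit without the variance trend, a replicate block, only the compared groups, and each library left out.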

Additional observations from a re-analysis of the deposited data

Results flagged for a closer look

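H2bc4 is set apart because its Eed cKO effect differed between the stages by a test of the difference itself. The effect in growing oocytes minus that in non-growing oocytes was 2.99 on the log2(TPM + 1) scale (SE 0.21, limma adjusted p = 0.010). In non-growing oocytes both cKO libraries (4.15 and 5.13 TPM) were below both controls (42.6 and 43.8 TPM), as in 38.1% of all genes tested. In growing oocytes the cKO libraries (51.4 and 55.7 TPM) overlapped the controls (59.3 and 47.2 TPM). The difference was called in all 8 alternatives that used every library and in 6 of 8 with a library left out.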

How the results depend on the processing

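No called histone gene changed direction under any alternative. Every alternative with all libraries kept the calls of H2bc4, in non-growing Eed cKO oocytes and between stages, of 18 of 20 genes in control growth, 17 of 20 in cKO growth and 7 of 13 in the PRC1 comparison. In non-growing Eed cKO oocytes 1 histone gene was called, and 2 with 5 TPM added, with no filter, under quantile scaling or with only the compared groups fitted; leaving out a library gave 1 to 2. The stage difference gave 1 call, and 0 to 4 with a library left out: 0 without control non-growing library 2 or cKO non-growing library 1, and 4 without cKO growing library 1. In growing Eed cKO oocytes no alternative called any histone gene. The PRC1 comparison gave 13, and 8 to 11 with a library left out. Fits with a library left out assume that the lone library varies like the other groups. Control growth gave 18 to 22 calls and cKO growth 19 to 22 with a library left out. With the replicate number as a block the counts were 1, 0, 1, 20, 22 and 12 (non-growing Eed cKO, growing Eed cKO, stage difference, control growth, cKO growth, PRC1). The differences between same-numbered libraries of the PRC2 table had r from -0.03 to 0.26 across groups. The highest r, 0.26, was between the cKO non-growing and cKO growing groups. Whether same-numbered libraries share more than a number was not tested. In the PRC1 table r was -0.27, and a crossed pairing was added after the data were seen. It gave 18 calls of 28 histone genes tested, 9 higher and 9 lower. Over all 14941 genes that fit called 9501, 7932 higher and 1569 lower. With the replicate number as a block that total was 5094, and with no block 7140. The cause of these shifts was not tested. TPM keeps no depth, so no counting error can be given for low values, and 2 libraries a group limit every estimate of spread.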
